A study of Rattus norvegicus with 12 samples.

Results

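Calcineurin is a phosphatase that is switched on by calcium and calmodulin, and its transcripts were followed here with those of its targets and inhibitors in cultured rat heart muscle cells. The 9 genes were taken by symbol: Rcan1 and Rcan2, Ppp3ca, Ppp3cb and Ppp3r1, and Nfatc1, Nfatc2, Nfatc3 and Nfatc4. All 9 were among the 17419 genes of the deposited count table, and all 9 were among the 12535 that passed the filter on low counts and were tested.

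In the classical pathway a rise in calcium loads calmodulin, which activates the calcineurin heterodimer of a catalytic A subunit (Ppp3ca, Ppp3cb or Ppp3cc) and a regulatory B subunit (Ppp3r1). Calcineurin then strips phosphates from the cytoplasmic NFATc transcription factors, which enter the nucleus and act beside GATA4 and MEF2 proteins, a route known for driving cardiomyocyte hypertrophy. RCAN proteins bind and restrain calcineurin. Rcan1 is itself switched on by NFAT from an internal promoter, so its transcript is widely used as a readout of calcineurin activity.

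The cultures were cardiomyocyte-enriched cells from ventricles of wildtype Sprague-Dawley rats on the day of birth, and small interfering RNA (siRNA) had been given 48 h before collection. Every group received 20 nM of siRNA in all. The scramble group received 20 nM of the control siRNA, the siBtg1 group 10 nM of scramble and 10 nM against Btg1, and the siBtg2 group 10 nM of scramble and 10 nM against Btg2. The doubly treated group received 10 nM against Btg1 and 10 nM against Btg2, with no scramble. Btg1 and Btg2 encode related proteins, antiproliferative cofactors of the CCR4-NOT deadenylase. Each group had 3 libraries, and nothing in the labels says whether these were separate cultures, so the p-values cover only the spread among these libraries, which may be technical.

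The libraries held 24434925 to 46206581 counts, and 1 count was worth 0.0213 to 0.0422 CPM (counts scaled to a common depth between libraries). The Btg1 transcript was at 23.4%, 106% and 18.3% of its scramble mean in siBtg1, siBtg2 and doubly treated cultures. The Btg2 transcript was at 127%, 61.5% and 49.6% in the same order, so its knockdown was partial. The 5 measured cardiomyocyte markers (Tnnt2, Tnni3, Myh6, Actn2, Ryr2) summed to 13168 to 15687 TPM (the deposited length-corrected unit) over the 12 libraries. Markers of other cells were present as well: 8 fibroblast genes summed to 5497 to 7057 TPM, 5 smooth muscle genes to 2529 to 3710, 8 endothelial genes to 48.7 to 73.4, 8 macrophage genes to 45.5 to 74.8 and 5 T cell genes to 1.2 to 2.7. In such bulk samples, fewer cells of a type and less RNA per cell cannot be told apart.

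Rcan1 was the most abundant transcript of the set. On the TPM scale, the scramble means were 525 ± 28.0 for Rcan1, 136 ± 3.48 for Ppp3r1, 122.3 ± 4.79 for Rcan2, 65.0 ± 2.72 for Ppp3cb and 52.6 ± 2.40 for Ppp3ca (SD, n = 3). The transcription factor genes were lower, with 22.8 ± 0.493 TPM for Nfatc3, 13.1 ± 0.529 for Nfatc4, 7.70 ± 0.700 for Nfatc1 and 2.60 ± 0.200 for Nfatc2 (SD, n = 3). This order held in all 4 groups, and in none of them did the libraries of neighbouring genes overlap.

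Rcan1 rose with either siRNA alone, and no change was called with both together. Its values were 536, 582 and 585 CPM in the scramble libraries (replicates 1 to 3, the order used throughout), and 645, 673 and 768 in siBtg1 cultures. It was at 726, 740 and 721 CPM in siBtg2 cultures and at 576, 545 and 602 in doubly treated cultures. All 6 single-siRNA libraries lay above all 6 scramble and double-siRNA libraries, while the scramble and double-siRNA libraries overlapped.

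In edgeR's quasi-likelihood test, adjusted over all genes by Benjamini-Hochberg, Rcan1 changed by 0.29 ± 0.05 on the log2 scale in siBtg1 cultures (SE, adjusted p = 2.1e-04). In siBtg2 cultures it changed by 0.36 ± 0.05 (edgeR adjusted p = 3.5e-05). In doubly treated cultures the difference from scramble was 0.02 ± 0.05 and was not called (edgeR adjusted p = 0.84), with a 95% interval of -0.11 to 0.14 that lies below the estimate in either single-siRNA group. Rcan1 was lower in doubly treated cultures than in siBtg1 cultures by a log2 change of -0.28 ± 0.05 (edgeR adjusted p = 8.0e-04) and than in siBtg2 cultures by -0.34 ± 0.05 (adjusted p = 4.2e-05). The difference between the single-siRNA groups, -0.07 ± 0.05, did not pass (edgeR adjusted p = 0.34).

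The interaction term asks whether the log2 changes of the single-siRNA groups add up in doubly treated cultures. Had they added, Rcan1 would have stood at 893 CPM in doubly treated cultures, or at 856 CPM if the changes had added on the linear scale, against 574 ± 28.9 measured (SD, n = 3). The interaction was -0.64 ± 0.08 (SE, edgeR adjusted p = 6.7e-06), and it stayed between -0.69 and -0.56 when each library was left out in turn. Gene-level counts do not separate the Rcan1 transcripts of its different promoters. The summed smooth muscle markers were at 2977 to 3710 TPM in siBtg1 and 2927 to 3293 in siBtg2 cultures, against 2529 to 2767 in scramble and 2735 to 2985 in doubly treated cultures. Acta2 made up most of each sum, at 115.5%, 121.1% and 102.6% of scramble CPM in siBtg1, siBtg2 and doubly treated cultures. The others differed in that order: Cnn1 273%, 194% and 228%, Tagln 153%, 103% and 111.5%, Myh11 112%, 109% and 114%, Mylk 98.85%, 95.5% and 83.2%. By edgeR 2, 1 and 3 of 5 rose, beside 18.7%, 16.4% and 19.4% of all tested genes. In doubly treated cultures 1 fell (19.5% of all). The part of these markers in the Rcan1 values was not tested.

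**Figure D1:**
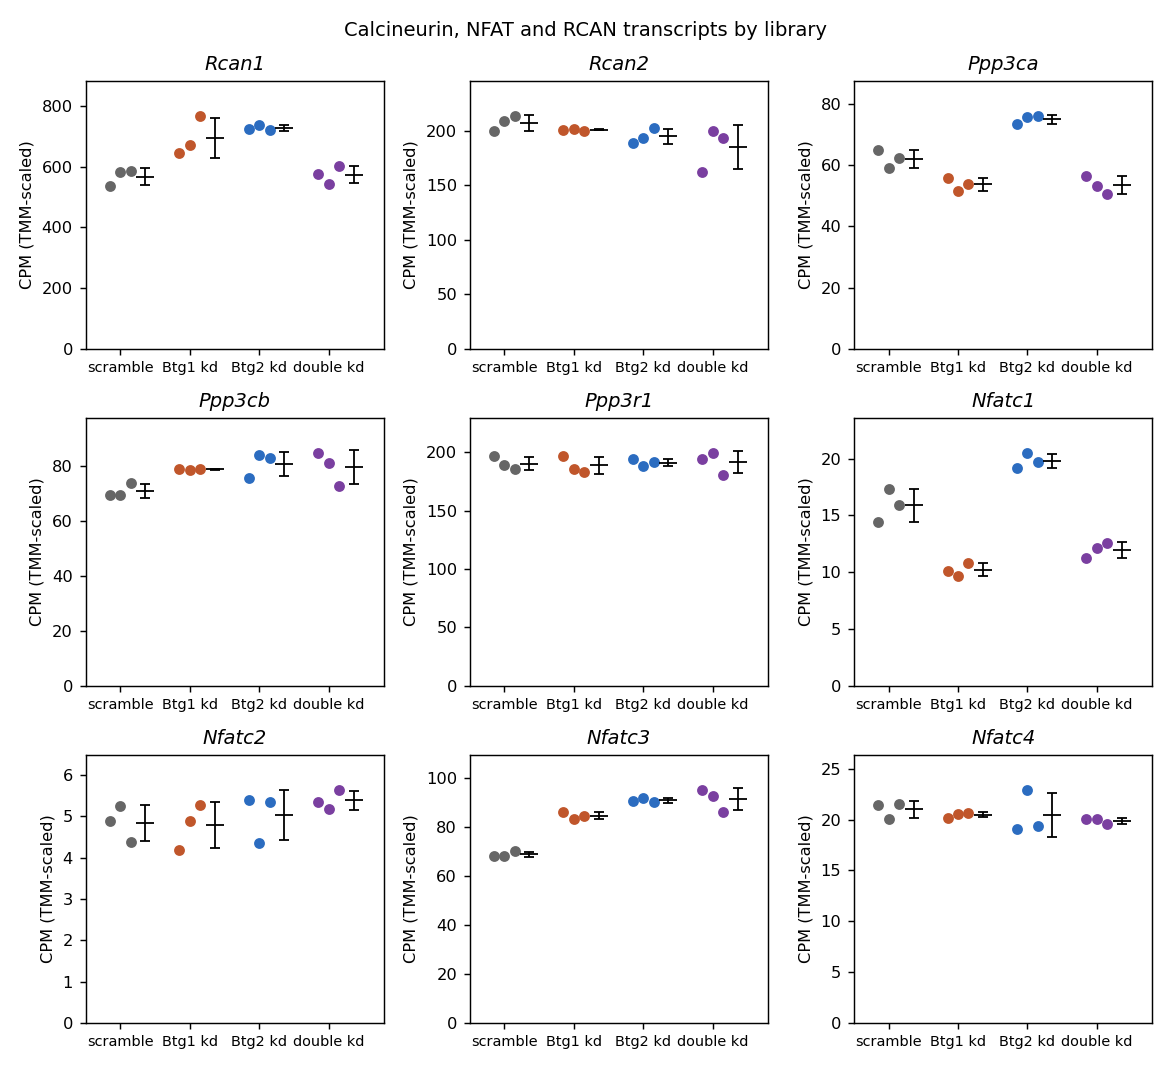
TMM-scaled CPM of the 9 genes in each library, 1 panel per gene with its own axis from 0; points are the 3 libraries of a group, and the black bar beside them is the mean with its SD (kd, knockdown, the cultures given that siRNA). Rcan1 lies between 645 and 768 CPM in the single-siRNA groups and between 536 and 602 in the other groups; Nfatc1 is lowest in siBtg1 cultures and highest in siBtg2 cultures.

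The 250 bases before the annotated start of Rcan1 are shown because NFAT binds the core GGAAA and Rcan1 serves as the NFAT readout. The sequence is the RefSeq entry of build GRCr8 (chr11:45118237-45118486, minus strand, written along the gene), and capitals mark GGAAA or its reverse complement TTTCC. RefSeq windows were matched for Rcan1, Rcan2, Ppp3ca, Ppp3cb, Ppp3r1 and Nfatc2. The windows of Ppp3ca (chr2:227839357-227839606, plus strand) and Ppp3cb (chr15:3809012-3809261, plus strand) are set beside it because these catalytic subunits moved in opposite directions with siBtg1.
Rcan1: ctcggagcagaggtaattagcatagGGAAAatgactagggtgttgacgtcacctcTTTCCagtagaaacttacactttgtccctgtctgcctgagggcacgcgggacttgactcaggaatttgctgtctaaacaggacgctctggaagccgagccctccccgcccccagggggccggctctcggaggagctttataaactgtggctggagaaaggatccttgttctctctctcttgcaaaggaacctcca
Ppp3ca: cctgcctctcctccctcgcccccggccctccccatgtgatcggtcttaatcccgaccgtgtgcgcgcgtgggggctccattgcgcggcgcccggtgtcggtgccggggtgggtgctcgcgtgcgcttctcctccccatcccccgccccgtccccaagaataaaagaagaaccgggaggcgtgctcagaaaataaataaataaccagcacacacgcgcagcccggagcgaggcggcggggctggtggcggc
Ppp3cb: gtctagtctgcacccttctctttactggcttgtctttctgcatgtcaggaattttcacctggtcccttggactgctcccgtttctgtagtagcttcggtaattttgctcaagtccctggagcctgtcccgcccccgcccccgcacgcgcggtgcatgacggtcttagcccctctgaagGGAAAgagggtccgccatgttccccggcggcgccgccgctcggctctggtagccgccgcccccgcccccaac
The core occurs 2 times in the Rcan1 window, 225 and 195 bases before the start and once on each strand, 1 time in that of Ppp3cb and 0 times in that of Ppp3ca. Of 33469 RefSeq windows of this length, 56.9% hold the core at least 1 time and 22.9% at least 2 times, so these matches are common and are a description only. The counts were made on build rn5, and the window need not be the start used in these cells.

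Rcan2, the next member of the inhibitor family, did not follow Rcan1. It was at 200, 209 and 214 CPM in scramble, 201, 202 and 200 in siBtg1 cultures, 189, 194 and 202 in siBtg2 cultures, and 162, 200 and 193 in doubly treated cultures. The scramble libraries overlapped those of every other group, and double-siRNA replicate 1 lay below the rest. Its log2 change of -0.16 ± 0.06 in doubly treated cultures passed edgeR's test (adjusted p = 0.027). Without double-siRNA replicate 1 it was -0.08 (adjusted p = 0.17), and the call also ended without scramble replicate 2 (adjusted p = 0.070) or 3 (adjusted p = 0.096). The changes of -0.04 ± 0.06 and -0.09 ± 0.06 in siBtg1 and siBtg2 cultures did not pass (edgeR adjusted p = 0.58 and 0.25).

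Among the calcineurin subunits, both catalytic transcripts rose with the Btg2 siRNA alone and went opposite ways where the Btg1 siRNA was given, while the regulatory subunit showed no call. Ppp3ca, the A-alpha subunit, was at 64.9, 59.2 and 62.5 CPM in scramble and at 56.0, 51.7 and 53.9 in siBtg1 cultures. It was at 73.5, 75.8 and 76.2 CPM in siBtg2 cultures and at 56.6, 53.1 and 50.7 in doubly treated cultures. Every library with the Btg1 siRNA lay below every scramble library, and every siBtg2 library lay above.

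By edgeR's quasi-likelihood test Ppp3ca fell by 0.21 ± 0.05 on the log2 scale in siBtg1 cultures (adjusted p = 0.0027) and by 0.22 ± 0.05 in doubly treated cultures (adjusted p = 0.0015). It rose by 0.27 ± 0.05 in siBtg2 cultures (edgeR adjusted p = 2.4e-04). The rise with the Btg2 siRNA was not seen on top of the Btg1 siRNA, where the change was -0.01 ± 0.05 (edgeR adjusted p = 0.90), and the interaction was -0.29 ± 0.07 (adjusted p = 0.0085). Doubly treated cultures lay below siBtg2 cultures by a log2 change of -0.49 ± 0.05 (edgeR adjusted p = 8.6e-08), and siBtg1 cultures did so by -0.48 ± 0.05 (adjusted p = 7.8e-08).

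Ppp3cb, the A-beta subunit, was higher in all 3 knockdown groups by small amounts. It was at 69.3, 69.5 and 73.8 CPM in scramble, 78.7, 78.4 and 78.9 in siBtg1 cultures, 75.6, 83.8 and 82.6 in siBtg2 cultures, and 84.6, 80.9 and 72.5 in doubly treated cultures. Only double-siRNA replicate 3 overlapped the scramble libraries. The log2 changes were 0.15 ± 0.05, 0.19 ± 0.05 and 0.16 ± 0.05 in that order (edgeR adjusted p = 0.029, 0.011 and 0.018). These calls were fragile. In siBtg1 cultures the call ended without scramble replicate 1 or 2 or any 1 of its own replicates (edgeR adjusted p = 0.062 to 0.11), and in siBtg2 cultures without scramble replicate 1 or its own replicate 2 or 3 (0.055 to 0.059). In doubly treated cultures it ended without scramble replicate 1 or 2 or its own replicate 1 or 2 (edgeR adjusted p = 0.056 to 0.12).

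Ppp3r1, the calcium-binding regulatory subunit, lay between 181 and 200 CPM in all 12 libraries. Its log2 changes against scramble were -0.01, 0.01 and 0.01 in siBtg1, siBtg2 and doubly treated cultures, each with an SE of 0.04 (edgeR adjusted p = 0.85, 0.93 and 0.89). The 95% intervals of these changes together spanned -0.11 to 0.11.

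The makeup of the catalytic pool followed from these values. As a share of the summed TPM of Ppp3ca, Ppp3cb and Ppp3cc (the A-gamma subunit), Ppp3ca made up 32.4 ± 1.23% in scramble, 29.0 ± 0.629% in siBtg1 cultures, 34.3 ± 0.934% in siBtg2 cultures and 28.5 ± 0.348% in doubly treated cultures (SD, n = 3). Ppp3cb made up 40.0 ± 0.811%, 45.8 ± 0.867%, 39.8 ± 0.414% and 45.8 ± 1.21% in the same order (SD, n = 3). The 6 libraries with the Btg1 siRNA held 44.4 to 46.6% Ppp3cb and the 6 without it 39.1 to 40.7%, with no overlap. The shares are descriptions without a test of their own.

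**Figure D2:**
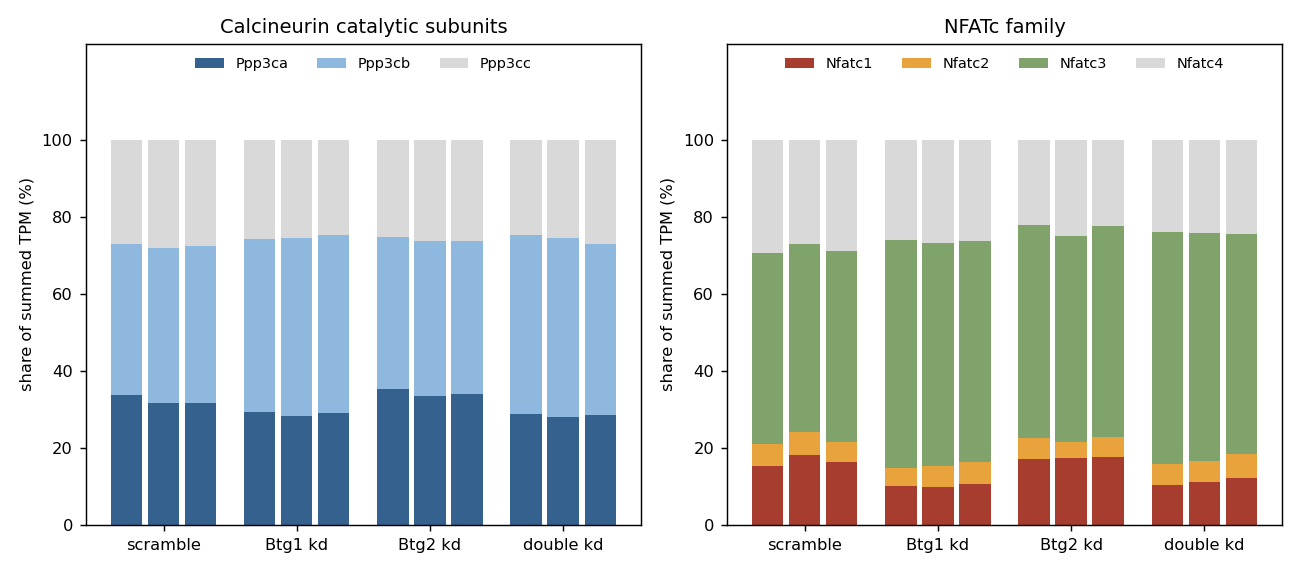
Share of summed TPM, in percent, of the 3 calcineurin catalytic subunit genes (left) and the 4 NFATc genes (right); each bar is 1 library, grouped by siRNA (kd, knockdown, the cultures given that siRNA). The Ppp3cb share is 44.4 to 46.6% in libraries with the Btg1 siRNA and 39.1 to 40.7% in the others, and Nfatc3 holds the largest NFATc share in all 12.

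Nfatc3, the most abundant of the NFATc genes and one whose loss is known to blunt calcineurin-driven hypertrophy in mice, rose in all 3 knockdown groups. It was at 68.3, 68.4 and 70.2 CPM in scramble, 86.2, 83.4 and 84.5 in siBtg1 cultures, 90.7, 91.9 and 90.1 in siBtg2 cultures, and 95.1, 92.8 and 86.3 in doubly treated cultures. The lowest knockdown library stood above the highest scramble library.

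The log2 changes of Nfatc3 were 0.30 ± 0.04 in siBtg1, 0.40 ± 0.04 in siBtg2 and 0.41 ± 0.04 in doubly treated cultures (SE, edgeR adjusted p = 9.0e-06, 3.3e-07 and 9.6e-08). Doubly treated cultures were below the sum of the single changes, with an expected level of 112 CPM against 91.4 ± 4.57 measured (SD, n = 3) and an interaction of -0.29 ± 0.06 (edgeR adjusted p = 0.0020). Between doubly treated and siBtg1 cultures the change of 0.11 ± 0.04 was not called (edgeR adjusted p = 0.071), but was without double-siRNA replicate 3 (0.15, adjusted p = 0.011). Cultures with siBtg1 lay -0.10 ± 0.04 from siBtg2 cultures (edgeR adjusted p = 0.064), which passed without double-siRNA replicate 3 (adjusted p = 0.032). In the RefSeq annotation Nfatc3 overlaps Esrp2, which had 324 to 620 counts per library, and no strand setting is given, so reads of the shared stretch are uncertain.

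Nfatc1, best known for its part in heart valve endocardium, moved in opposite directions with the single siRNAs. It was at 14.4, 17.3 and 15.9 CPM in scramble and at 10.1, 9.69 and 10.8 in siBtg1 cultures. It was at 19.2, 20.5 and 19.7 CPM in siBtg2 cultures and at 11.2, 12.2 and 12.6 in doubly treated cultures. The 4 groups did not overlap one another: the order from low to high was siBtg1, doubly treated, scramble and siBtg2.

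Nfatc1 changed by -0.64 ± 0.08 in siBtg1 cultures (edgeR adjusted p = 1.9e-06), by 0.31 ± 0.08 in siBtg2 cultures (adjusted p = 0.0045) and by -0.41 ± 0.08 in doubly treated cultures (adjusted p = 3.6e-04). No departure from additive log2 changes was called, with an expected level of 12.7 CPM against 11.99 ± 0.704 measured (SD, n = 3) and an interaction of -0.08 ± 0.12 (edgeR adjusted p = 0.70, 95% interval -0.35 to 0.19). Adding the Btg2 siRNA to the Btg1 siRNA gave 0.23 ± 0.08 (edgeR adjusted p = 0.050, not passed), and this passed without scramble replicate 1 or 2 or double-siRNA replicate 1 (adjusted p = 0.038 to 0.047). The direct difference between siBtg1 and siBtg2 cultures was -0.95 ± 0.08 (edgeR adjusted p = 3.4e-09), the largest of any of the 9 genes in any of the 7 comparisons.

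The 8 endothelial markers, all detected, summed to 68.3 to 73.4 TPM in scramble, 60.1 to 68.2 in siBtg1, 58.3 to 60.0 in siBtg2 and 48.7 to 54.7 in doubly treated cultures. By edgeR 1 rose and 1 fell in siBtg1 cultures, where 18.7% of all tested genes rose and 17.8% fell. That rise was lost with the replicate number as a block and without scramble replicate 2 or 3, siBtg1 replicate 1 or 3 or siBtg2 replicate 2, and 2 fell without scramble replicate 1 or siBtg1 replicate 1 or 3. In siBtg2 cultures 0 rose (0 to 1 when single libraries were left out) and 4 fell, against 16.4% and 13.6% of all, but the falls were 1 to 2 without scramble replicate 1 or 2 or siBtg2 replicate 1 or 3. Doubly treated cultures had 1 rise and 6 falls, against 19.4% and 19.5% of all. In siBtg2 cultures Nfatc1 was higher while the endothelial sum was lower. The 8 fibroblast markers summed to 6886 to 7057 TPM in scramble, 5559 to 6335 in siBtg1, 6666 to 6807 in siBtg2 and 5497 to 6223 in doubly treated cultures. Of these, 7, 5 and 7 fell in siBtg1, siBtg2 and doubly treated cultures and 0 rose, beside the 17.8%, 13.6% and 19.5% of all tested genes that fell. The siBtg2 count was 3 without scramble replicate 1 or 2 or siBtg2 replicate 3. The fibroblast sum was lowest in the groups where Nfatc1 and Ppp3ca fell, but its members did not all follow it. Pdgfra and Tcf21 were at 79.6% and 79.4% of scramble CPM in siBtg2 cultures, against 90.5% and 91.35% in siBtg1 cultures. The other fibroblast markers were lower in siBtg1 than in siBtg2 cultures. The part of other cells in the Nfatc1 and Ppp3ca values was not tested.

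Nfatc2 and Nfatc4 gave no call in any of the 7 comparisons. Nfatc2, a factor best known from T cells, lay between 4.19 and 5.63 CPM, with log2 changes of -0.03 ± 0.13, 0.07 ± 0.13 and 0.15 ± 0.13 in siBtg1, siBtg2 and doubly treated cultures (edgeR adjusted p = 0.91, 0.73 and 0.37). Its 103 to 227 counts per library limit what could be seen: the 95% interval in doubly treated cultures ran from -0.14 to 0.45. Nfatc4, known for a part in cardiac hypertrophy, lay between 19.1 and 22.9 CPM, with changes of -0.04, -0.05 and -0.08 and an SE of 0.07 each (edgeR adjusted p = 0.73, 0.66 and 0.40). It overlaps Ripk3 in the RefSeq annotation, which had 655 to 1319 counts per library, so its reads carry the same uncertainty. The 8 macrophage and leukocyte markers summed to 60.4 to 74.8 TPM in scramble, 47.7 to 56.5 with siBtg1, 45.5 to 47.7 with siBtg2 and 54.1 to 56.2 with both siRNAs. Of the T cell markers, Cd3e and Cd3g were too low to test. Their part in the Nfatc2 values was not tested.

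As a share of the 4 NFATc genes by TPM, Nfatc3 went from 49.4 ± 0.512% in scramble to 58.1 ± 0.960% in siBtg1, 54.7 ± 1.07% in siBtg2 and 59.0 ± 1.52% in doubly treated cultures (SD, n = 3). Nfatc1 held 16.7 ± 1.38%, 10.2 ± 0.357%, 17.4 ± 0.226% and 11.3 ± 0.965% in the same order (SD, n = 3). Every library of a knockdown group held a larger Nfatc3 share than every scramble library. The Nfatc1 share was 9.92 to 12.3% in libraries with the Btg1 siRNA and 15.4 to 18.1% in those without.

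**Figure D3:**
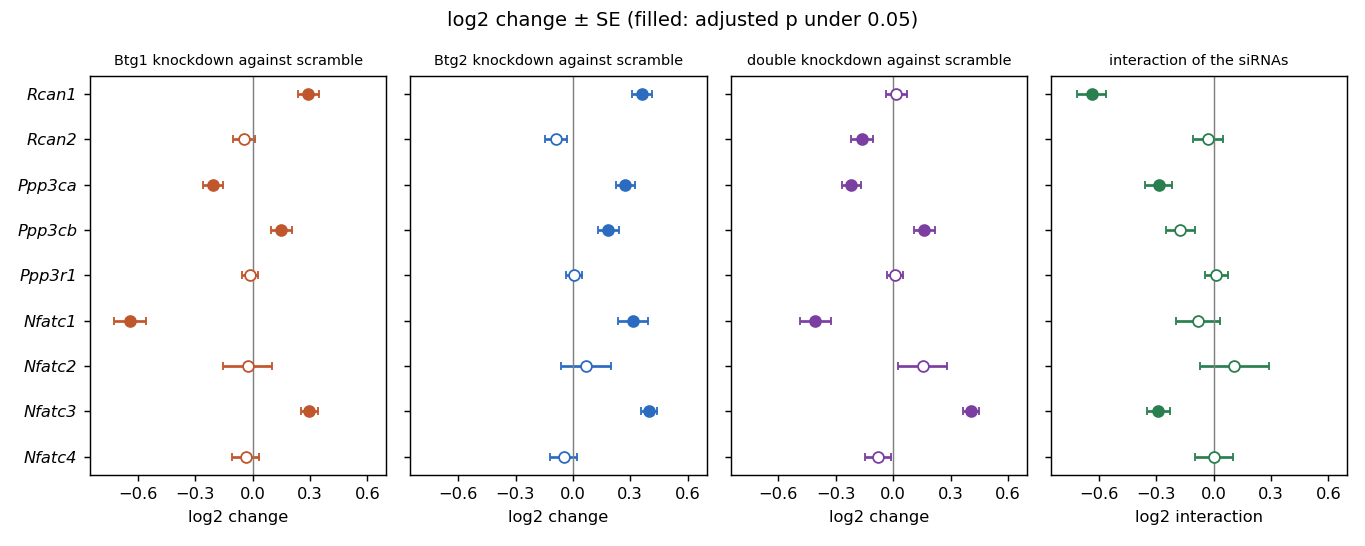
Log2 change of the 9 genes in each knockdown group against scramble, and the log2 interaction of the 2 siRNAs (right); points are edgeR estimates, bars are SE, and filled points have an adjusted p under 0.05. Ppp3ca and Nfatc1 lie on opposite sides of 0 in siBtg1 and siBtg2 cultures, and Rcan1 lies at 0.02 in doubly treated cultures with an interaction of -0.64.

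Counted over the set, 5 of 9 genes passed edgeR's test in each knockdown against scramble. In siBtg1 cultures 3 rose and 2 fell, where 36.5% of all tested genes passed, and in doubly treated cultures 2 rose and 3 fell, where 38.9% passed. In siBtg2 cultures 5 rose and 0 fell, where 30.0% of all genes passed and 16.4% rose. The libraries did not overlap those of scramble for 5, 5 and 3 of the 9 in siBtg1, siBtg2 and doubly treated cultures, where 50.1%, 45.7% and 46.8% of all tested genes did not overlap. The double-siRNA count was 3 without scramble replicate 2 or without double-siRNA replicate 1. These comparisons share the scramble libraries. The median log2 changes of the 9 genes were -0.03, 0.19 and 0.01 in siBtg1, siBtg2 and doubly treated cultures, and those of all tested genes were 0.00, 0.00 and -0.01.

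Between the knockdown groups fewer of the 9 passed. Doubly treated against siBtg1 cultures gave 1 of 9 (Rcan1), where 22.3% of all genes passed (10.3% higher, 11.9% lower), but 2 without replicate 1 or 2 of scramble or without any 1 replicate of doubly treated cultures. Doubly treated against siBtg2 cultures gave 3 of 9 (Rcan1, Ppp3ca and Nfatc1), where 32.2% passed (15.2% higher, 17.0% lower). Cultures with siBtg1 against siBtg2 cultures gave 2 of 9 (Ppp3ca and Nfatc1), where 40.8% passed (20.3% higher, 20.6% lower). In these 3 comparisons the libraries did not overlap for 5, 3 and 3 of the 9, against 34.6%, 42.1% and 51.8% of all tested genes. The interaction gave 3 of 9, each negative, where 15.1% of all genes passed and 10.1% were negative. With library size alone in place of TMM scaling, the calls over all genes shifted in direction. They went from 2051 higher and 1709 lower to 1579 and 2248 in siBtg2 cultures, from 626 and 1264 to 1004 and 1016 for the interaction, and from 1909 and 2130 to 2443 and 1758 for doubly treated against siBtg2 cultures.

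Genes known to be NFAT targets or markers of hypertrophy were set beside Rcan1: Nppa and Nppb (natriuretic peptides), Myh7 (the beta myosin heavy chain), Acta1 (skeletal alpha-actin) and Ptgs2 (cyclooxygenase 2). In siBtg2 cultures 3 of 5 rose and 0 fell, where 16.4% of all tested genes rose and 13.6% fell. In siBtg1 cultures 2 rose and 1 fell (18.7% and 17.8% of all tested genes), a count of 3 that was 1 without scramble replicate 1 or 2. In doubly treated cultures 0 rose and 1 fell (19.4% and 19.5% of all), and 0 passed without scramble replicate 3. The interaction was negative and passed for 4 of 5, where 10.1% of all tested genes did so, with a median of -0.58 against 0.01 over all tested genes.

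Nppa was at 2003, 1998 and 2149 CPM in scramble, 2235, 2479 and 2784 in siBtg1 cultures, 2525, 2988 and 2375 in siBtg2 cultures, and 2082, 2139 and 2207 in doubly treated cultures. As with Rcan1, all 6 single-siRNA libraries exceeded the other 6. Its log2 change was 0.29 ± 0.08 in siBtg1, 0.36 ± 0.08 in siBtg2 and 0.06 ± 0.08 in doubly treated cultures (edgeR adjusted p = 0.016, 0.0054 and 0.59), with an interaction of -0.58 ± 0.12 (adjusted p = 0.0047). The siBtg1 call ended without scramble replicate 1 or 2 or siBtg1 replicate 3 (edgeR adjusted p = 0.053 to 0.056).

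Nppb was at 1071, 1039 and 1093 CPM in scramble and at 1056, 1035 and 1065 in doubly treated cultures. It was at 1044, 1272 and 1361 CPM in siBtg1 cultures, which overlapped scramble, and at 1288, 1452 and 1204 in siBtg2 cultures, which did not. Its log2 changes were 0.20 ± 0.09, 0.30 ± 0.09 and -0.02 ± 0.09 in siBtg1, siBtg2 and doubly treated cultures (edgeR adjusted p = 0.088, 0.019 and 0.87). The interaction was -0.52 ± 0.12 (edgeR adjusted p = 0.012). The siBtg2 call ended without scramble replicate 2 or siBtg2 replicate 2 (adjusted p = 0.065 and 0.057). That of siBtg1 cultures passed without siBtg1 replicate 1, at 0.30 (adjusted p = 3.9e-04), or siBtg2 replicate 2 (0.044).

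Myh7 rose in siBtg2 cultures, at 7506, 8064 and 7497 CPM against 5248, 5336 and 5486 in scramble (0.52 ± 0.05, edgeR adjusted p = 2.8e-08). It was at 4703, 4853 and 5138 CPM in siBtg1 cultures and 4605, 4796 and 5051 in doubly treated cultures. These falls of -0.13 ± 0.05 and -0.15 ± 0.05 (edgeR adjusted p = 0.039 and 0.014) were fragile. The first ended without any 1 scramble replicate or siBtg1 replicate 1 or 2 (adjusted p = 0.056 to 0.15), and the second without scramble replicate 3 or double-siRNA replicate 1 (0.069 and 0.073). The interaction of Myh7 was -0.55 ± 0.07 (edgeR adjusted p = 6.1e-06).

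Acta1 rose in siBtg1 cultures, at 807, 971 and 1147 CPM against 518, 642 and 634 in scramble (0.70 ± 0.15, edgeR adjusted p = 0.0052). Its values of 780, 796 and 654 in siBtg2 cultures and 646, 768 and 710 in doubly treated cultures did not pass (edgeR adjusted p = 0.15 and 0.23). The interaction of -0.77 ± 0.21 passed (edgeR adjusted p = 0.039) but not when any of 9 libraries was left out (0.057 to 0.087): any scramble replicate, siBtg1 replicate 2 or 3, siBtg2 replicate 1 or 2, or double-siRNA replicate 1 or 3. Ptgs2 had an SE of 0.24 against 0.05 to 0.15 for the other target genes, with for example 59.8, 39.1 and 32.6 CPM in doubly treated cultures. It passed in none of the 3 comparisons with scramble (edgeR adjusted p = 0.26 in doubly treated cultures, 0.031 without its replicate 1).

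**Figure D4:**
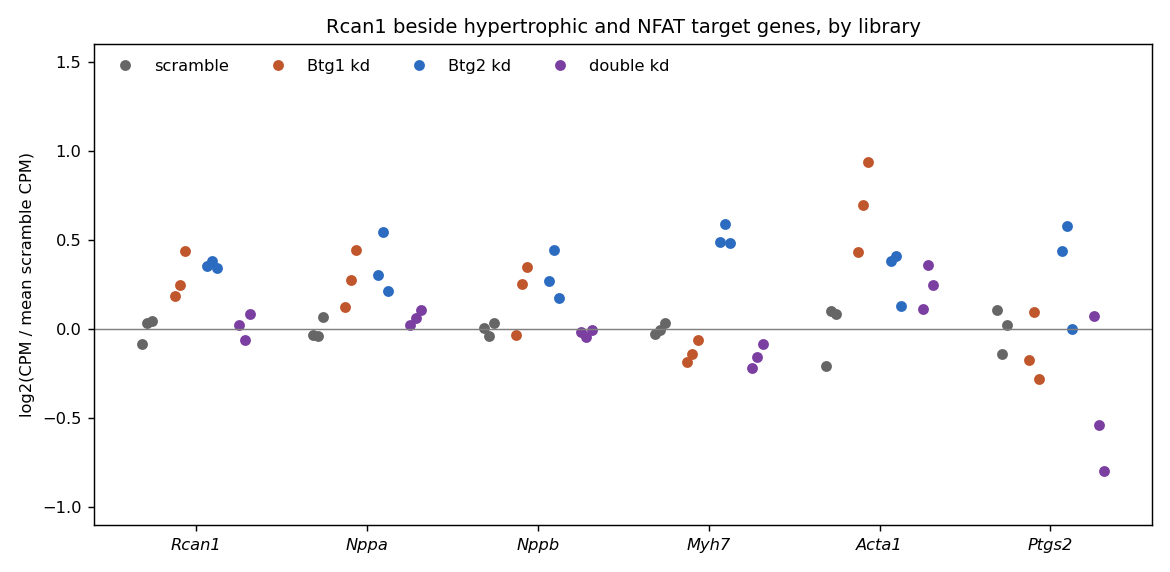
Log2 of CPM over the mean scramble CPM for Rcan1 and 5 hypertrophic and NFAT target genes; each point is 1 library, coloured by group (kd, knockdown, the cultures given that siRNA), and the grey line marks the scramble mean. For Rcan1 and Nppa all single-siRNA libraries lie above all scramble and double-siRNA libraries; Myh7 is above scramble in siBtg2 cultures only.

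A search over 9780 other genes with at least 5 CPM named those whose profile was nearest to Rcan1, by root mean square difference over the 12 libraries in log2 CPM relative to scramble. The nearest were Pdlim5 (0.06), Nr2c2 (0.07), Tns1 (0.08), Nppa (0.08) and Gnao1 (0.09), beside a root mean square of 0.24 for Rcan1's own departure from the scramble mean. Pdlim5, a Z-disc LIM protein gene, stood 0.33 above scramble in siBtg1 cultures, 0.34 above in siBtg2 cultures and 0.01 above in doubly treated cultures on this scale. The other hypertrophic genes listed above were not among the nearest 5.

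The remaining genes around the pathway moved in both directions. Of 60 genes listed in 8 groups, 57 were measured and 56 tested. In siBtg1 cultures 25 rose and 10 fell, against 18.7% and 17.8% of all tested genes. In siBtg2 cultures 21 rose and 4 fell, against 16.4% and 13.6%, and 11 fell with library size alone. In doubly treated cultures 18 rose and 13 fell, against 19.4% and 19.5%. For the interaction 0 were positive and 19 negative, against 4.99% and 10.1%.

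Calmodulin is encoded by several genes with one identical protein, so reads in stretches they share are uncertain. Calm2 fell in all 3 groups, with log2 changes of -0.27, -0.23 and -0.37 in siBtg1, siBtg2 and doubly treated cultures. Calm3 rose by 0.25 in siBtg1 cultures and fell by 0.14 in siBtg2 cultures, and its rise of 0.12 in doubly treated cultures was lost without scramble replicate 2 or double-siRNA replicate 2 (edgeR adjusted p = 0.055 and 0.065).

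Of 4 further calcineurin and NFAT family genes, Ppp3r2, the testis form of the B subunit, had 0 counts in all libraries. Nfat5, the calcium-independent family member, fell by 0.25 ± 0.04 in doubly treated cultures (edgeR adjusted p = 5.0e-05). Rcan3, the third inhibitor gene, passed in none of the 3 comparisons with scramble. Ppp3cc fell by 0.17 ± 0.06 in siBtg1 cultures (edgeR adjusted p = 0.019), a call lost without scramble replicate 3 or siBtg1 replicate 2 or 3 (0.061 to 0.079). With Nfat5 (-0.13, edgeR adjusted p = 0.019), 2 of the 3 tested genes of this group passed in siBtg1 cultures, where 36.5% of all tested genes passed. That count was 0 without scramble replicate 3 or siBtg1 replicate 3 and 1 without siBtg1 replicate 2.

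Among 13 measured anchors, inhibitors and binding partners of calcineurin and NFAT, 6 rose and 3 fell in doubly treated cultures (19.4% and 19.5% of all tested genes) and 6 rose and 2 fell in siBtg1 cultures (18.7% and 17.8%). In siBtg2 cultures 5 rose and 0 fell (16.4% and 13.6% of all), and the count of 5 called was 3 without scramble replicate 3 and 8 in a fit of only the groups compared. Lmcd1, a LIM protein linked to calcineurin signalling in heart, had the largest change in this list: 58.5 ± 1.42 CPM in scramble, 172 ± 26.2 in siBtg1, 108 ± 11.5 in siBtg2 and 146 ± 17.9 in doubly treated cultures (SD, n = 3). Its log2 changes were 1.55 ± 0.13, 0.88 ± 0.13 and 1.32 ± 0.13, and its interaction was -1.11 ± 0.18 (edgeR adjusted p = 0.0030). Csrp3, the muscle LIM protein of the Z-disc, rose by 0.60 ± 0.06 in siBtg1 and 0.31 ± 0.06 in siBtg2 cultures, with an interaction of -0.72 ± 0.09 (edgeR adjusted p = 1.5e-05). Its rise of 0.19 in doubly treated cultures passed as well (edgeR adjusted p = 0.02). That call was lost without scramble replicate 1 or double-siRNA replicate 1 or 3 (adjusted p = 0.06 to 0.079). Homer2, a scaffold that competes with calcineurin for NFAT, rose in siBtg2 (0.41 ± 0.04) and doubly treated cultures (0.28 ± 0.04), and Chp1, a calcineurin B homologue, fell in siBtg1 (-0.29 ± 0.05) and doubly treated cultures (-0.28 ± 0.05). Fkbp1a, the partner through which tacrolimus blocks calcineurin, rose by 0.22 and 0.20 in siBtg1 and doubly treated cultures.

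Of 12 kinases that return NFAT to its phosphorylated, cytoplasmic form, 7 rose and 1 fell in siBtg1 cultures, where 18.7% of all tested genes rose and 17.8% fell. Doubly treated cultures had 5 rises and 3 falls, against 19.4% and 19.5% of all. Dyrk1a, which primes NFAT for further phosphorylation, rose in all 3 groups by 0.31 ± 0.04, 0.20 ± 0.04 and 0.21 ± 0.04 in siBtg1, siBtg2 and doubly treated cultures. Casein kinase gene Csnk1a1 rose by 0.25, 0.22 and 0.17 in that order, each with an SE of 0.04. Gsk3b, which promotes NFAT export from the nucleus, fell in doubly treated cultures (-0.29 ± 0.06, edgeR adjusted p = 3.0e-04). It rose in siBtg1 cultures by 0.20 ± 0.06 (adjusted p = 0.0071, and 0.052 without scramble replicate 2). Dyrk2 rose in siBtg1 (0.34 ± 0.05) and doubly treated cultures (0.25 ± 0.05). In siBtg2 cultures 4 rose and 0 fell, against 16.4% and 13.6% of all, and 2 were called without scramble replicate 1 or 3 or siBtg2 replicate 1.

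Of 11 genes of calcium entry and release, 5 rose and 1 fell in siBtg1 cultures, where 18.7% of all tested genes rose and 17.8% fell. In siBtg2 cultures 3 rose and 2 fell, a count of 5 called that was 3 without scramble replicate 2 or siBtg2 replicate 3, and by limma on log2 TPM. In doubly treated cultures 3 rose and 2 fell. Shares of 30.0% and 38.9% of all tested genes passed in siBtg2 and doubly treated cultures, so the 5 of 11 in doubly treated cultures is near the background. Orai2, a store-operated channel, fell in siBtg1 (-0.36 ± 0.07) and doubly treated cultures (-0.41 ± 0.07). Cacna1c, the cardiac L-type channel, rose by 0.16 ± 0.04 in siBtg1 cultures and fell by 0.18 ± 0.04 in siBtg2 and 0.17 ± 0.04 in doubly treated cultures. Itpr1, a calcium release channel, rose by 0.30 ± 0.05 in both siBtg1 and doubly treated cultures. It also rose in siBtg2 cultures, by 0.21 (edgeR adjusted p = 0.0014), but not by limma on log2 TPM (adjusted p = 0.11 and 0.12).

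Nuclear partners and carriers of NFAT gave 3 rises of 5 in siBtg1 and doubly treated cultures and 5 of 5 in siBtg2 cultures, with no falls. Of all tested genes 18.7%, 19.4% and 16.4% rose in siBtg1, doubly treated and siBtg2 cultures. The siBtg2 call of Mef2d ended with library size alone (edgeR adjusted p = 0.053) or without scramble replicate 2 (0.055). That of Xpo1 ended without siBtg2 replicate 2 (edgeR adjusted p = 0.058). Gata4, the NFAT partner in hypertrophic transcription, rose by 0.27, 0.14 and 0.15 in siBtg1, siBtg2 and doubly treated cultures, each with an SE of 0.04. Mef2a rose by 0.16 ± 0.04 in siBtg1 and 0.33 ± 0.04 in siBtg2 cultures, and its 0.10 ± 0.04 in doubly treated cultures did not pass (edgeR adjusted p = 0.077). Mef2d rose by 0.24 ± 0.04 and 0.22 ± 0.04 in siBtg1 and doubly treated cultures. Of 4 measured other substrates, Crtc2, a CREB coactivator freed by calcineurin, fell by 0.24 ± 0.05 in siBtg1 and 0.18 ± 0.05 in doubly treated cultures. Dnm1l, the mitochondrial fission GTPase, rose by 0.21 ± 0.05 in siBtg1 and 0.20 ± 0.05 in siBtg2 cultures.

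**Figure D5:**
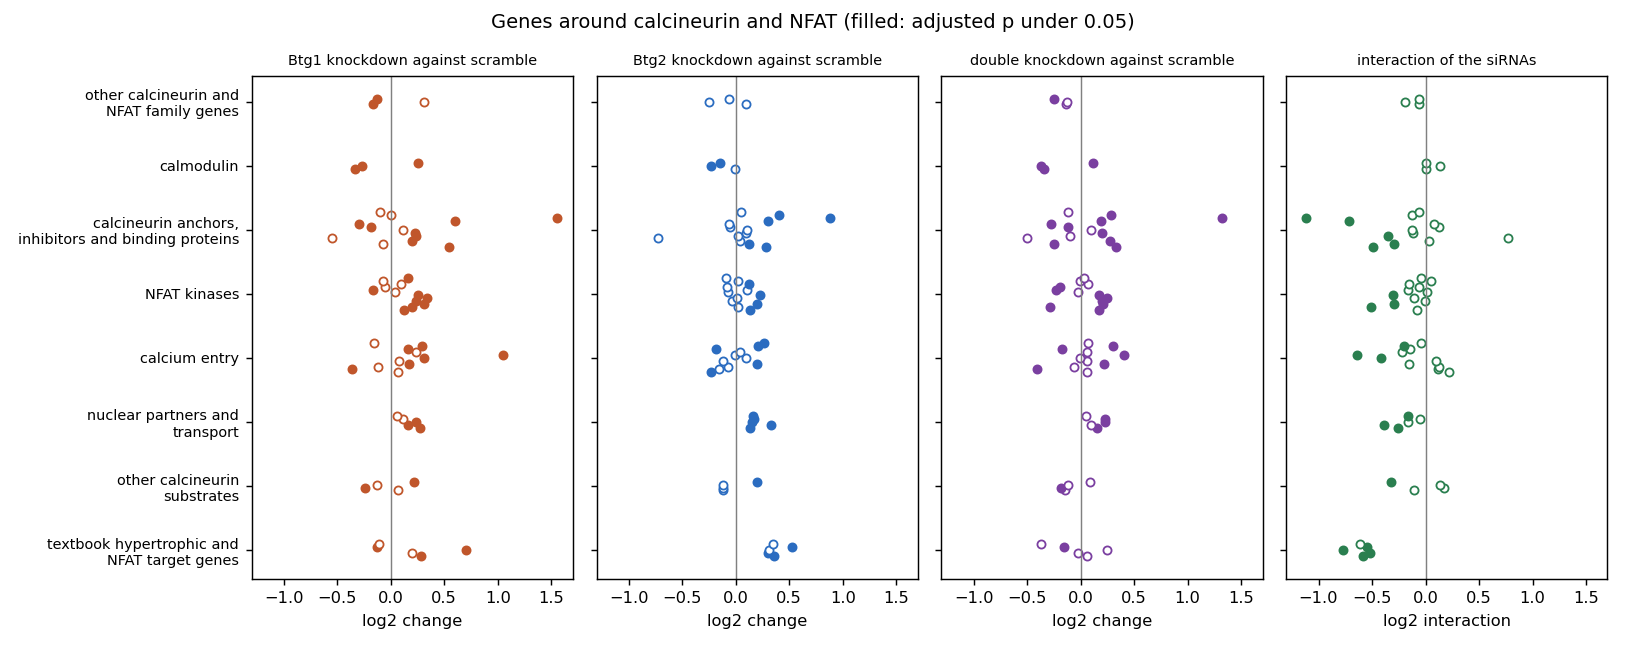
Log2 changes of 56 tested genes around calcineurin and NFAT, in 8 groups (rows), for each knockdown against scramble and for the interaction of the siRNAs; each point is 1 gene, and filled points have an edgeR adjusted p under 0.05. In the interaction panel all 19 filled points lie below 0.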

How the data were processed

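RNA of 12 libraries, 3 in each of 4 siRNA groups named in the sample titles, was amplified (Ovation RNA-Seq v2), made into libraries (Nextera XT) and sequenced in pairs, per the labels' protocols. Reads went through FastQC, Trim Galore and cutadapt, STAR and featureCounts on the build rn5, per the submitters' processing notes. For annotation, strand and multi-mapping no setting is given in the sources used here. Raw counts per gene symbol were deposited by the authors, with a second deposited table of TPM rounded to 0.1. Amplified reads without molecular identifiers are not independent molecules.

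Tests used edgeR's quasi-likelihood method on these counts (edgeR 4.0.16, limma 3.58.1, R 4.3.3), with TMM scaling, filterByExpr (12535 of 17419 genes kept), robust dispersions and all 12 libraries fitted together, which leaves 8 residual degrees of freedom. P-values were adjusted by Benjamini-Hochberg over all tested genes within each of 7 comparisons and called at 0.05. Each SE came from the log2 change and its F value, and 95% intervals use that SE. CPM are TMM-scaled. The fit was tested on simulated data.

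Replicates differed by more than sampling noise in every group (chi-square per degree of freedom 4.07 to 25.7). The members and lists were chosen with earlier results of these data known. From each list, up to 3 genes with the smallest p in doubly treated cultures and up to 2 more with the smallest p in a single-siRNA group were eligible to be named, with the 5 genes nearest to Rcan1. Some genes that this rule names are left out here. Esrp2 and Ripk3 were added for their overlap. Myoz3, Mef2c, Crtc3 and Ttn were not analysed here. Alternatives were DESeq2 1.42.0, scaling by RLE or by library size alone, a minimum of 1 CPM in 6 libraries or no filter, a fit of only the groups compared, a replicate block, limma on log2 TPM with a pseudocount of 1 or 0.1, and the omission of each library in turn.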

Additional observations from a re-analysis of the deposited data

Results flagged for a closer look

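The log2 change with both siRNAs differed from the sum of the single changes by edgeR's interaction test for 26 of the genes named here. The sign was negative for 25 and positive for 1 (Myh6), where 10.1% of all tested genes passed with a negative and 4.99% with a positive sign. The targeted genes were among them, at -0.437 for Btg1 and -0.65 for Btg2, so their knockdown was deeper with both siRNAs than the single changes add up to. Among the 9 genes the values were -0.636 for Rcan1, -0.287 for Ppp3ca and -0.289 for Nfatc3.

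Of the hypertrophic and NFAT target genes, Nppa was at -0.581, Nppb at -0.52, Acta1 at -0.775 and Myh7 at -0.545. Of the calcineurin and NFAT binding proteins, Lmcd1 was at -1.11 and Csrp3 at -0.72. The kinases were at -0.291 for Dyrk1a, -0.51 for Gsk3b and -0.306 for Csnk1a1. The calcium channels were at -0.414 for Trpc1 and -0.204 for Itpr1. The nuclear partners and carriers were at -0.256 for Gata4, -0.389 for Mef2a and -0.167 for Kpnb1, and the substrate Dnm1l was at -0.322. Of the cardiomyocyte markers, Myh6 was at 0.204 and Ryr2 at -0.247. The genes chosen for their likeness to Rcan1 were at -0.659 for Pdlim5, -0.593 for Nr2c2, -0.529 for Tns1 and -0.491 for Gnao1, which that choice favours.

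The calls of Acta1, Trpc1, Itpr1, Kpnb1 and Myh6 each ended when at least 1 library was left out. For Trpc1 that library was scramble replicate 2 (-0.354, edgeR adjusted p = 0.054). For Myh6 it was any 1 scramble replicate, siBtg1 replicate 1 or 2, siBtg2 replicate 1 or 3, or double-siRNA replicate 1 or 3 (edgeR adjusted p = 0.052 to 0.096). Groups of 3 libraries are too small to look for single outlying libraries.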

How the results depend on the processing

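Against scramble and for the interaction, each call of Rcan1, Ppp3ca, Nfatc1 and Nfatc3 kept its direction and stayed under an adjusted p of 0.05 in every alternative run. Doubly treated against siBtg1 cultures gave 1 called member, but 3 with DESeq2, 2 with RLE scaling and 2 with a filter of 1 CPM in 6 libraries. Leaving out 1 library at a time gave 1 to 2 there, 3 to 5 for doubly treated cultures against scramble, 4 to 5 for each single-siRNA group and 3 to 3 for the interaction. With the replicate number as a block, the counts of called members were 5, 5 and 5 against scramble and 3 for the interaction, as without it, and doubly treated cultures had 4759 called genes in place of 4873. No pairing is stated in the labels, and the 18 same-numbered pairs had correlations of deviations from -0.092 to 0.0599, with 3 of 12 libraries closest to their own number. The block ended the interaction calls of Itpr1 and Myh6 (edgeR adjusted p = 0.052 for each). Library size alone ended those of Itpr1 and Kpnb1 (edgeR adjusted p = 0.096 and 0.093). With limma on log2 TPM the interaction calls of Ryr2 (adjusted p = 0.061) and Trpc1 (0.058 and 0.061) ended. So did those of Itpr1 (limma adjusted p = 0.39 and 0.4) and Kpnb1 (0.096 and 0.097).

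Signs turned only for values that were never called. Leaving out 1 library gave -0.0244 to 0.0534 for Rcan1 and -0.0205 to 0.0496 for Ppp3r1 in doubly treated cultures. It gave -0.0456 to 0.0112 for Ppp3r1 and -0.1 to 0.0678 for Nfatc2 with siBtg1, and -0.0116 to 0.0291 for Ppp3r1 with siBtg2. For the interaction it gave -0.0884 to 0.0585 for Rcan2, -0.0151 to 0.0546 for Ppp3r1 and -0.042 to 0.0837 for Nfatc4. Library size alone gave -0.0278 for Ppp3r1 with siBtg2 and 0.00802 for the Rcan2 interaction. The cause was not tested. Depth limits Nfatc2 most, at 103 to 227 counts per library.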
